A study of Rattus norvegicus with 6 samples.

Results

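The 10 genes Cd36, Fabp7, Cpt1a, Cpt1c, Cpt2, Acaca, Acadm, Acadl, Ppara and Ppargc1a take up long-chain fatty acids, bring them into mitochondria, burn them there, or control these steps. They were chosen by name, with the difference between the groups already known, and every probe whose accession belongs to one of them was taken. This gave 11 probes, 2 for Cd36 and 1 for each other gene, of 30367 probes on the array, and all 11 were among the 22768 probes tested, which covered 11949 named genes. Because the choice used this same comparison, the differences of the 10 genes are given as a description, without a test. mRNA was measured in hippocampal tissue of adult male Sprague Dawley (SD) rats on Agilent Rat 4x44K one-colour arrays, 1 array a sample. The AD group (3 arrays) had Aβ1–42 oligomers injected into the cerebral ventricles on both sides, a rat model of Alzheimer's disease that carries no transgene. The Sham group (3 arrays) was the sham control, and the paper's methods do not say what these rats were given. The labels do not say which animal each tissue sample came from.

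Fatty acids cross the plasma membrane partly with the help of the scavenger receptor CD36 and are carried through the cytosol by fatty acid binding proteins. Carnitine palmitoyltransferase 1 (CPT1) joins the activated fatty acid to carnitine at the outer mitochondrial membrane, CPT2 takes the carnitine off inside, and the acyl-CoA dehydrogenases start each turn of beta-oxidation. Malonyl-CoA, the product of acetyl-CoA carboxylase, blocks CPT1, and the nuclear receptor PPARα with its coactivator PGC-1α switches on many genes of the pathway. In the brain beta-oxidation takes place mainly in astrocytes, while neurons use little fatty acid as fuel.

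Levels are log2 of the processed signal minus the 75th percentile of the array, so that 0 stands for the upper quartile of all probes on the array. Where 3 values are listed for a group, they are those of its replicates 1, 2 and 3 in this order. Levels of different probes cannot be set against each other, since each probe binds with its own strength. Before scaling, the upper quartile of the signal was 795 to 932 on the AD arrays, 753 and 755 on Sham replicates 1 and 2, and 429 on Sham replicate 3. The AD arrays were scanned together, Sham replicates 1 and 2 in a second scan on the same day, and Sham replicate 3 alone on another day, so scan and group cannot be told apart. Pairs of AD arrays correlated at 0.988 to 0.994, pairs of Sham arrays at 0.979 to 0.993, and AD with Sham arrays at 0.976 to 0.987. All 6 markers of hippocampal excitatory neurons, among them Prox1 and Neurod6, were above background, 1 of them lower in AD in limma (Spink8), with a summed level of 3.33 to 3.44 in AD and 3.05 to 3.42 in Sham. In such bulk tissue, fewer cells of a type and less RNA per cell cannot be told apart.

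Of the 11 probes, 5 had an adjusted p under 0.05 in limma (Cpt1a, Acadm and Ppargc1a higher in AD, 1 probe of Cd36 and Acaca lower), where 12.6% of all tested probes had one, 4.15% higher and 8.40% lower. The AD and Sham arrays did not overlap for 8 of the 11 probes, 4 higher and 4 lower, where 39.0% of all tested probes did not overlap, 15.6% higher and 23.4% lower. Nothing is read from these shares, since the genes were picked with the comparison known. The genes did not move as a block: the median difference was -0.14 over the 11 probes and 0.00 over the 10 genes with 1 probe each, and over all tested probes it was -0.01. Within this list the shuttle enzymes Cpt1a and Cpt2, the dehydrogenase Acadm and the coactivator Ppargc1a were higher in AD, whereas Cd36, Fabp7, Acaca and Ppara were lower, and Cpt1c and Acadl overlapped between the groups. These 5 calls rest on all of 5 arrays: in limma 0 of the 11 probes had an adjusted p under 0.05 without AD replicate 1, 2 or 3 or Sham replicate 1 or 2, each left out in turn (7 or 8 probes at an unadjusted p under 0.05), and 5 without Sham replicate 3, where Cpt2 passed and Acaca did not (limma adjusted p = 0.0264 and 0.0556). The same exchange of Acaca for Cpt2 came with the percentile taken over detected probes.

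**Figure D1:**
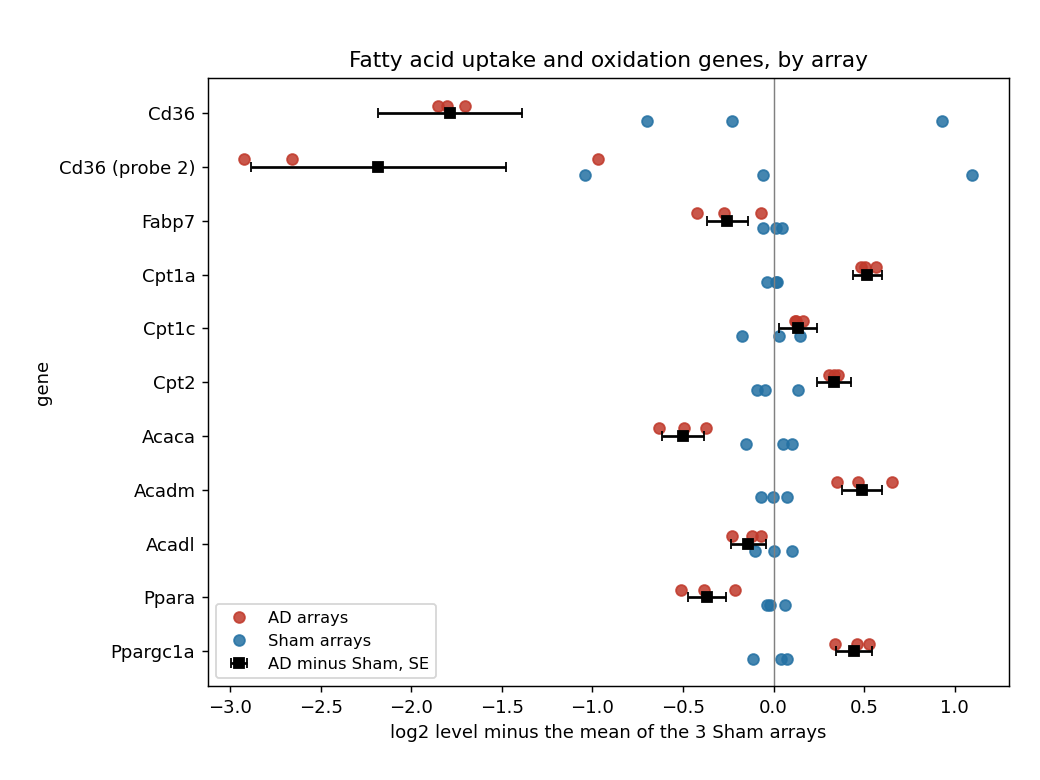
Level of each probe on every array as log2 minus the mean of the 3 Sham arrays (horizontal axis), with AD arrays in red, Sham arrays in blue, and the AD minus Sham difference with its standard error as a black square and bar. The AD points of Cpt1a, Cpt2, Acadm and Ppargc1a lie to the right of all their Sham points, and those of the first Cd36 probe lie 1.01 or more to the left of them.

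Cd36 encodes a membrane receptor that binds long-chain fatty acids, oxidised lipoproteins and fibrillar Aβ, and in the brain it is made by microglia, macrophages and blood vessel cells. Its first probe (A_64_P054808) had levels of -5.28, -5.13 and -5.23 on AD replicates 1, 2 and 3. On Sham replicates 1, 2 and 3 the levels were -3.65, -2.50 and -4.12. The 3 AD arrays lay within 0.15 of each other, while the Sham arrays spanned 1.63, with Sham replicate 2 the highest. The groups did not overlap, and the gap between the lowest Sham and the highest AD array was 1.01. Before scaling, the processed signals were 23.1, 22.7 and 24.8 in AD and 59.9, 134 and 24.6 in Sham, so that Sham replicate 3 was within the range of the AD signals and stood above them only relative to its own, dimmer array. AD was lower by 1.79 ± 0.40 (SE, n = 3 per group; 95% interval -2.76 to -0.82), that is 3.45-fold, the largest difference among the 10 genes for probes above background on all 6 arrays.

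The second Cd36 probe (A_64_P113793) was well above background on only 1 AD array and 2 Sham arrays. Its levels were -7.73, -7.99 and -6.04 in AD and -5.13, -3.97 and -6.11 in Sham. AD replicate 3 stood just above Sham replicate 3, so the groups overlapped. The mean difference had the same sign as for the first probe, -2.18 ± 0.71 (SE, n = 3 per group). On both probes Sham replicate 2 was the highest array and Sham replicate 1 came next.

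**Figure D2:**
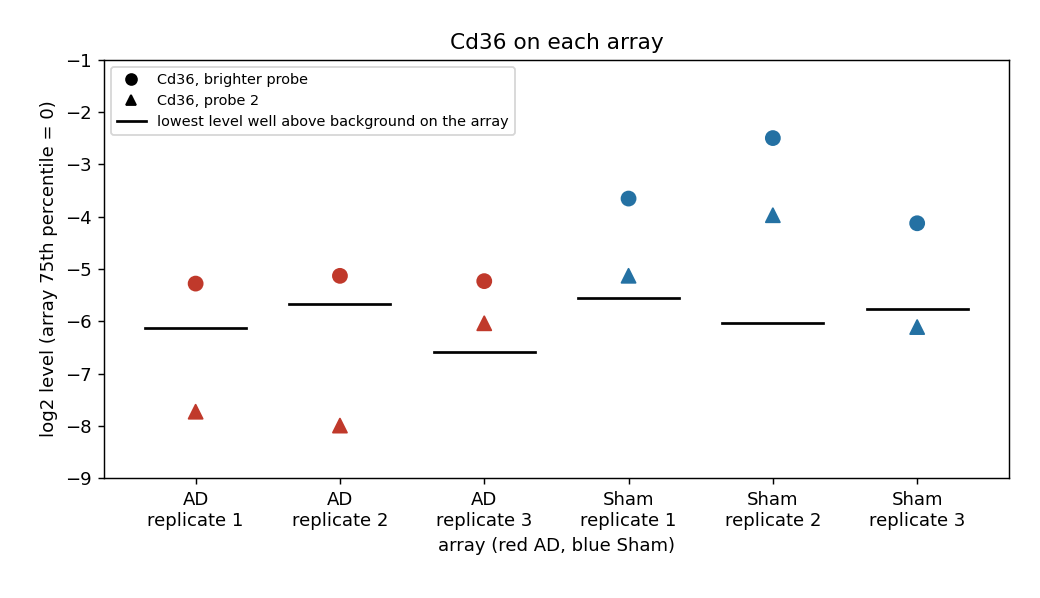
Levels of both Cd36 probes (circles and triangles; log2, 0 = 75th percentile of the array) on each of the 6 arrays, AD in red and Sham in blue, with black lines at the lowest level called well above background on that array. The first probe lies above the line on all 6 arrays, and the second lies below it on AD replicates 1 and 2 and on Sham replicate 3.

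The size of the Cd36 difference moved with the arrays and with the background correction. Without Sham replicate 2 it was -1.32 on the first probe, and without Sham replicate 3, which leaves the arrays of 1 day, -2.14. After normexp background correction it was -1.0 on the first probe and -0.70 on the second. This correction adds the same offset to every spot, which shrinks log2 differences most where signals are dim. Markers of monocytes and perivascular macrophages (6 of 6 above background, 0 with an adjusted p under 0.05 in limma) had summed levels of 3.00, 2.96 and 3.09 in AD and of 3.55, 3.87 and 3.10 in Sham, highest on the same Sham array as Cd36. That sum was mostly Lyz2, at 2.90, 2.85 and 2.99 in AD and 3.46, 3.72 and 3.00 in Sham. Cd68, Adgre1 and Ccr2 were also highest on Sham replicate 2, but Mrc1 and Cd163 on Sham replicate 1. Microglial markers (6 of 6 above background) summed to 2.86 to 3.49 in AD and 3.25 to 3.53 in Sham, endothelial markers (7 of 7, with Cldn5 higher by 0.42, limma adjusted p = 0.0341) to 4.08 to 4.27 and 3.41 to 4.10, and blood cell markers (5 of 5 measured) to 2.70 to 3.71 and 3.53 to 6.08. Of the other endothelial markers, Slco1c1, Tek and Flt1 were higher by 0.75, 0.32 and 0.24 in the mean. Cdh5 and Kdr differed by 0.02 and 0.04, and Pecam1 was lower by 0.24. Slco1c1, which weighs heavily in the endothelial sum, was at 3.58, 3.68 and 3.31 in AD and 2.83, 3.41 and 2.08 in Sham. The part of any of these cell types in the Cd36 values was not tested.

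The 5 named genes whose levels followed the first Cd36 probe most closely over the 6 arrays, of 11897 searched, were Lrsam1 (Pearson r = 0.995), Tbcb (0.993), Glipr1 (0.992), Zbtb33 (0.990) and Trpv2 (0.990). All 5 were highest on Sham replicate 2, as Cd36 was. Lrsam1 was near the floor. It lay below the lowest level well above background on AD replicate 2 (-6.145 against -5.67). The same held for Sham replicates 1 (-5.641 against -5.56) and 3 (-5.824 against -5.76). The differences of the 5 genes ran from -0.12 for Tbcb to -1.34 for Glipr1. These r values describe 6 arrays in 2 groups, and any gene with low AD arrays and a high Sham replicate 2 would score well.

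Fabp7, the brain fatty acid binding protein of astrocytes and radial glia, had a level of 2.79, 3.00 and 2.64 in AD and of 3.08, 3.00 and 3.11 in Sham. The groups were separated by only 0.01, between AD replicate 2 and Sham replicate 2. Before scaling they overlapped, with signals of 6183, 6348 and 5815 in AD and 6361, 6058 and 3708 in Sham. AD was lower by 0.26 ± 0.11 (SE, n = 3 per group; 95% interval -0.53 to 0.02). Astrocyte markers (6 of 6 above background, 0 called in limma) summed to 6.70, 6.95 and 6.75 in AD and to 7.0, 6.99 and 7.16 in Sham, so that the sum was lower on every AD array, most on AD replicates 1 and 3, as Fabp7 was. The list did not move as a whole, since Aqp4, Gja1, Slc1a2 and Slc1a3 were lower by 0.23 to 0.32 and Gfap was higher by 0.95 and Aldh1l1 by 0.16 in the mean. Markers of radial glia and neural progenitors, of which Tfap2c was above background on no array and 1 of 5 tested was called (Hes5, higher by 0.87, limma adjusted p = 0.0496), summed to 3.31 to 3.53 in AD and 3.17 to 3.32 in Sham. Whether the astrocyte share had a part in the Fabp7 difference was not tested.

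Cpt1a encodes the CPT1 form of liver, glia and most other tissues, the step that sets how fast fatty acids enter mitochondria. Its levels were -0.54, -0.45 and -0.51 in AD. In Sham they were -1.0, -1.05 and -1.0. Both groups were tight and lay 0.46 apart at the nearest, and the difference was the largest of the 11 probes relative to its standard error. AD was higher by 0.52 ± 0.08 (SE, n = 3 per group; 95% interval 0.33 to 0.71), or 1.43-fold.

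Cpt1c, the neuronal form, lies in the endoplasmic reticulum, binds malonyl-CoA and has little transferase activity. It had levels of 0.28, 0.25 and 0.24 in AD and of 0.26, -0.05 and 0.15 in Sham. The Sham arrays spread over the AD values, with Sham replicate 1 above AD replicates 2 and 3. The difference of 0.14 ± 0.11 (SE, n = 3 per group) had a 95% interval of -0.12 to 0.39, which holds 0 and also holds the difference of Cpt2. Neuronal markers (5 of 5 measured, with Syt1 and Tubb3 lower in AD in limma) summed to 5.72 to 5.92 in AD and 6.04 to 6.21 in Sham.

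Cpt2, the inner membrane partner that returns acylcarnitine to acyl-CoA, had levels of -0.47, -0.50 and -0.45 in AD. In Sham they were -0.85, -0.89 and -0.67. All AD arrays lay above all Sham arrays, by 0.17 at the nearest, with Sham replicate 3 closest to AD. AD was higher by 0.33 ± 0.09 (SE, n = 3 per group; 95% interval 0.10 to 0.56), or 1.26-fold, and by 0.40 within the day that holds both groups.

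Acaca encodes acetyl-CoA carboxylase, which makes the malonyl-CoA that feeds fatty acid synthesis and holds CPT1 back. Its probe was dim, with processed signals of 26.8, 20.0 and 25.7 in AD and 26.3, 31.5 and 17.3 in Sham, and was well above background on 2 AD and 3 Sham arrays. Relative to each array the levels were -5.06, -5.32 and -5.18 in AD and -4.84, -4.58 and -4.63 in Sham. All AD arrays were lower, by 0.22 at the nearest. The difference was -0.50 ± 0.11 (SE, n = 3 per group; 95% interval -0.78 to -0.22), or 1.42-fold. Unscaled, the signal of Sham replicate 3 was below all 3 AD signals and that of Sham replicate 1 below AD replicate 1, so the groups were separate only after scaling.

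Acadm, the medium-chain acyl-CoA dehydrogenase of mitochondrial beta-oxidation, had levels of -0.49, -0.61 and -0.31 in AD. In Sham they were -0.88, -1.03 and -0.96. Each AD array was above each Sham array, by 0.27 at the nearest. AD was higher by 0.49 ± 0.11 (SE, n = 3 per group; 95% interval 0.23 to 0.75), or 1.40-fold. Acadl, the long-chain enzyme of the same family, behaved otherwise, with levels of 2.49, 2.65 and 2.60 in AD and of 2.72, 2.61 and 2.82 in Sham. Sham replicate 2 lay among the AD arrays, so the groups overlapped. The difference was -0.14 ± 0.10 (SE, n = 3 per group; 95% interval -0.37 to 0.09), and its sign turned to 0.02 with quantile normalization and in the authors' value table.

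Ppara encodes the fatty acid sensing nuclear receptor PPARα. Its levels were -3.33, -3.50 and -3.63 in AD and -3.06, -3.16 and -3.14 in Sham. All AD arrays were lower than all Sham arrays, by 0.17 at the nearest, and the difference was -0.37 ± 0.10 (SE, n = 3 per group; 95% interval -0.62 to -0.11), or 1.29-fold. Before scaling, the Ppara signals were 88.8, 70.2 and 75.3 in AD and 90.4, 84.6 and 48.7 in Sham. The groups were therefore separate for Ppara only after scaling. Ppargc1a encodes PGC-1α, which partners with PPARα and other factors to raise mitochondrial gene expression. Its levels were -2.22, -2.34 and -2.15 in AD and -2.64, -2.61 and -2.79 in Sham. Here each AD array was above each Sham array, by 0.27 at the nearest, so receptor and coactivator differed in opposite directions. AD was higher by 0.44 ± 0.10 (SE, n = 3 per group; 95% interval 0.20 to 0.68), or 1.36-fold, and by 0.18 after normexp correction.

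The stretch of 250 bases before the gene start was read for 7 of the 10 genes from RefSeq promoters of the assembly GRCr8, and it is shown for the 4 genes that were higher together and for Cd36. Capitals mark matches, on either strand, to the nuclear receptor half-site AGGTCA, the GC box GGGCGG, the cAMP response element TGACGTCA, the E-box CACGTG, the CCAAT box CCAAT and the TATA box TATAAA. Each sequence is given 5′ to 3′ on the strand of its gene.
Cpt1a (chr1:209995910-209996159, plus strand): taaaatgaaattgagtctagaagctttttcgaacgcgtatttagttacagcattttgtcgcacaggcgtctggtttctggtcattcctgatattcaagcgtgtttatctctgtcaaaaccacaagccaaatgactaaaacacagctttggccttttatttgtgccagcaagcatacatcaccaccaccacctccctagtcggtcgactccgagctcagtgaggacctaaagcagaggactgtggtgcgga
Cpt2 (chr5:127910819-127911068, minus strand): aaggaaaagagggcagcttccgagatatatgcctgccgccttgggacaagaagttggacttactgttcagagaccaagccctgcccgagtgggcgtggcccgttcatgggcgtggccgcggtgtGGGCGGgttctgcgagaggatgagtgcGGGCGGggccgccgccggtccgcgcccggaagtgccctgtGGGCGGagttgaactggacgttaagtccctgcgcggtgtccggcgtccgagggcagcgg
Acadm (chr2:245542865-245543114, minus strand): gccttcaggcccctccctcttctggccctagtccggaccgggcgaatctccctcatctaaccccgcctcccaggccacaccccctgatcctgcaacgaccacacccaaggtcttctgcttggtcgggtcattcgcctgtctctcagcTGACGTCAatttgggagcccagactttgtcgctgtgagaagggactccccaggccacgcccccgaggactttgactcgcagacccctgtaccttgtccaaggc
Ppargc1a (chr14:63634058-63634307, plus strand): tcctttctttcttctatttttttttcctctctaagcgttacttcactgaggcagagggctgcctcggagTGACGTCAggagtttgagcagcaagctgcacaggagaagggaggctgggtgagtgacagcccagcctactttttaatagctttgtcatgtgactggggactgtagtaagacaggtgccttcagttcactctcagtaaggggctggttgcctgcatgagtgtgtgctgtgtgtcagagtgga
Cd36 (chr4:18246332-18246581, plus strand): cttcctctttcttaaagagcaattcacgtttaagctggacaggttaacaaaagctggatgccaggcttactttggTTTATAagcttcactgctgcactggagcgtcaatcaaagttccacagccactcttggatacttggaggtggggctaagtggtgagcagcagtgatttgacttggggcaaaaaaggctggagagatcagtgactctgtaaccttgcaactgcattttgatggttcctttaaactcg

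The 4 genes that were higher in AD did not share any 1 of these motifs. The cAMP response element, present in 1.6% of 33469 promoters, was found in those of Acadm (103 bases before the start) and Ppargc1a (181 bases). Cpt2 held 3 GC boxes, 126, 99 and 59 bases before the start, a motif found in 30.5% of all promoters, and Cpt1a held none of the 6 motifs. The half-site to which PPARα and its partner bind in pairs, found in 14.1% of all promoters, occurred in that of Fabp7 only among the 7 genes read. Cd36 held a TATAAA match, found in 12.9% of all promoters, on the opposite strand 175 bases before the start. The promoters also differed in composition, with a GC content of 66.8% for Cpt2 and 62.4% for Acadm against 45.6% for Cpt1a and Cd36 and a median of 51.2% over all promoters. A match is a run of letters and no evidence of binding, and a motif missing from this window may lie elsewhere.

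Around the 10 genes, 121 other genes of fatty acid metabolism were listed by role, of which 107 were tested, each by the probe with the highest mean signal. With limma, 16 of them passed at an adjusted p under 0.05. Of these, 5 rose and 11 fell in AD. That is 15.0%, against 14.9% of all named genes (4.08% higher and 10.8% lower), so the pathway as listed stood at the background. Their median difference was 0.00. The share of the calls that were higher, 31.2%, was 45.5% with the percentile taken over detected probes, 50% with quantile normalization and 14.3% after normexp correction. The 16 calls were lost when any 1 array other than Sham replicate 3 was left out (0 genes with an adjusted p under 0.05 in limma, 24 to 38 at an unadjusted p under 0.05), and without Sham replicate 3 there were 20, which held 15 of the 16 (not Acad9).

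Mitochondrial beta-oxidation, the role of Acadm and Acadl, held the most tested genes and the most calls among the roles. Of its 19 tested genes 3 were higher and 2 lower, with a median difference of 0.13. That is 26.3%, against 14.9% of all named genes and 0 to 17.6% in the other roles. No role was tested against this background. Acaa2, the thiolase of the last step, rose by 0.81 ± 0.15 (SE, n = 3 per group; limma adjusted p = 0.0272), with levels of -2.23, -2.28 and -1.80 in AD and of -2.85, -2.92 and -2.97 in Sham. Etfdh, which passes electrons from the dehydrogenases to the respiratory chain, rose by 0.69 ± 0.14 (limma adjusted p = 0.0317), and Pcca, a subunit of propionyl-CoA carboxylase, by 0.48 (0.0322). Acot2, a mitochondrial thioesterase, fell by 0.48 (limma adjusted p = 0.0275) on a probe whose companion differed by 0.19 the other way, and Acad9 fell by 0.40 (0.0486). After normexp correction Etfdh and Acot2 kept an adjusted p under 0.05 in limma, and Acaa2 (0.39), Pcca (0.28) and Acad9 (-0.36) did not. Acad9 also lost it with quantile normalization (-0.26) and in the authors' table (-0.26).

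Among genes of uptake, binding and activation, which work beside Cd36 and Fabp7, 0 of 18 rose and 3 fell in limma. At an unadjusted p under 0.05 in limma, 1 rose and 6 fell. The 3 calls are 16.7%, against 14.9% of all named genes (4.08% higher and 10.8% lower). The 3 genes called in limma were the binding protein Fabp5 (-0.68 ± 0.13, adjusted p = 0.0303) and the acyl-CoA synthetases Acsl1 (-0.56, adjusted p = 0.0435) and Acsl5 (-0.39, adjusted p = 0.0318). Of the 6 tested genes that work with Cpt1a and Cpt2 in the carnitine shuttle, 0 passed in limma (2 at an unadjusted p under 0.05). The carnitine transporter Slc22a5 had the largest difference there, 0.81 ± 0.32 (limma adjusted p = 0.142). Of 13 peroxisomal genes, Phyh was higher by 0.37 and Scp2 lower by 0.41 (limma adjusted p = 0.0351 and 0.0485). Phyh was at 0.15 after normexp correction and Scp2 at -0.21 both with quantile normalization and in the authors' table, and neither passed there. Of the uptake genes, Acsl1 did not pass in any of these 3 settings and Acsl5 did not after normexp correction. Finally, of 6 ketone body genes Oxct1, the enzyme that lets tissue use ketone bodies, fell by 0.60 ± 0.13 (limma adjusted p = 0.0390), and by 0.40 with quantile normalization.

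Of 17 genes of synthesis, the role of Acaca, Elovl7, a fatty acid elongase, rose by 1.23 ± 0.25 (limma adjusted p = 0.0330; 0.30 after normexp correction). In the same role Me1 and Acly, which supply NADPH and acetyl-CoA, fell by 0.61 and 0.39 (limma adjusted p = 0.0254 and 0.0435), Me1 on a probe whose companion differed by 0.04. Acly was at -0.19 with quantile normalization and in the authors' table and at -0.29 after normexp correction, and did not pass in these settings. Of 13 regulators beside Ppara and Ppargc1a, the retinoid receptor Rxrg fell by 1.39 ± 0.27 (limma adjusted p = 0.0313), from 1.31, 1.16 and 0.58 in Sham to -0.45, 0.07 and -0.72 in AD, and the mitochondrial transcription factor Tfam by 0.38 (0.0445), which did not pass in these 3 settings either. Of 15 PPAR target and lipid storage genes 0 passed in limma (1 at an unadjusted p under 0.05). The largest difference among them, 1.18 ± 0.59 for Ucp3, rested on a probe well above background on 1 Sham array (limma adjusted p = 0.225; 0.02 after normexp correction).

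**Figure D3:**
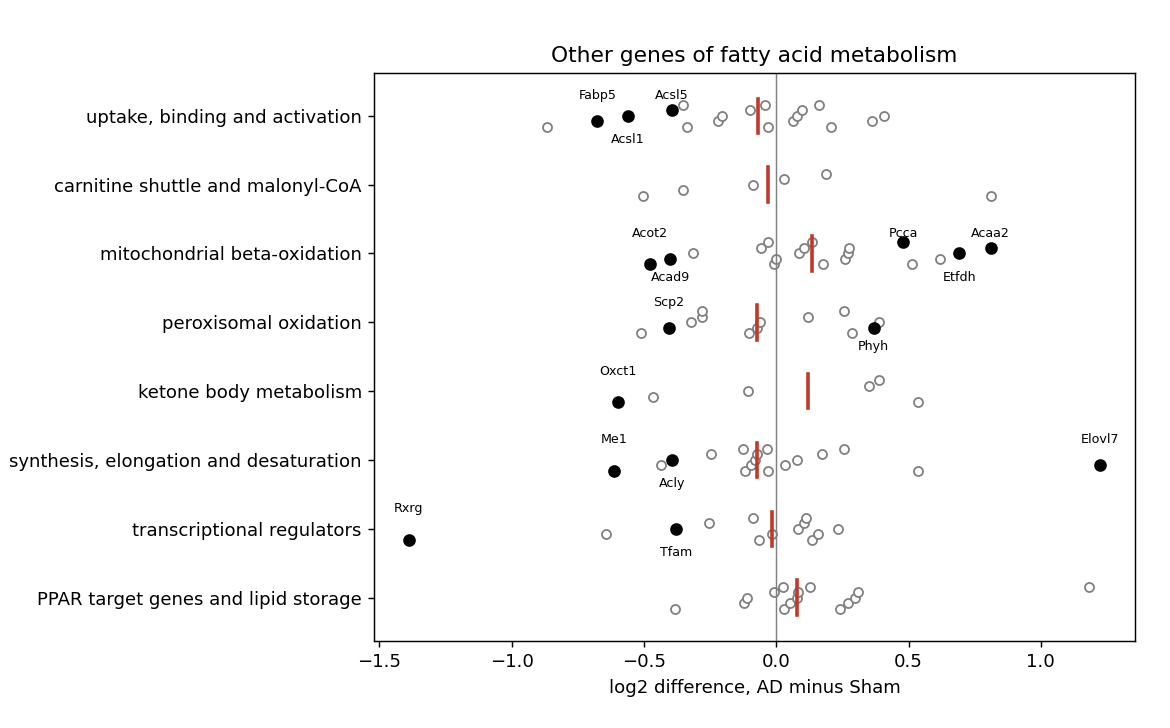
AD minus Sham difference (log2, horizontal axis) of each of the 107 other genes of fatty acid metabolism, by role, with genes of adjusted p under 0.05 in limma filled and named and red bars at the median of each role. The medians lie between -0.07 and 0.13, and filled points stand on both sides of 0.

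Over 17 alternative settings each of the 10 genes other than Acadl kept the sign of its difference wherever its probes were tested, Acadl in 15. Among these settings, scan day as a fixed block and leaving out Sham replicate 3 gave the same values. The difference of Cpt1a ran from 0.40 to 0.60, of Cpt2 from 0.28 to 0.41, of Acadm from 0.39 to 0.57 and of Ppargc1a from 0.18 to 0.53. On the lower side, Acaca ran from -0.58 to -0.40, Ppara from -0.45 to -0.25, Fabp7 from -0.35 to -0.09 and the first Cd36 probe from -2.20 to -1.0. Within the 1 day that holds both groups (AD replicates 1 to 3, Sham replicates 1 and 2) the differences were 0.53 for Cpt1a, 0.49 for Acadm, 0.39 for Ppargc1a, -0.47 for Acaca, -0.38 for Ppara, -0.23 for Fabp7, 0.15 for Cpt1c and -0.09 for Acadl.

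**Figure D4:**
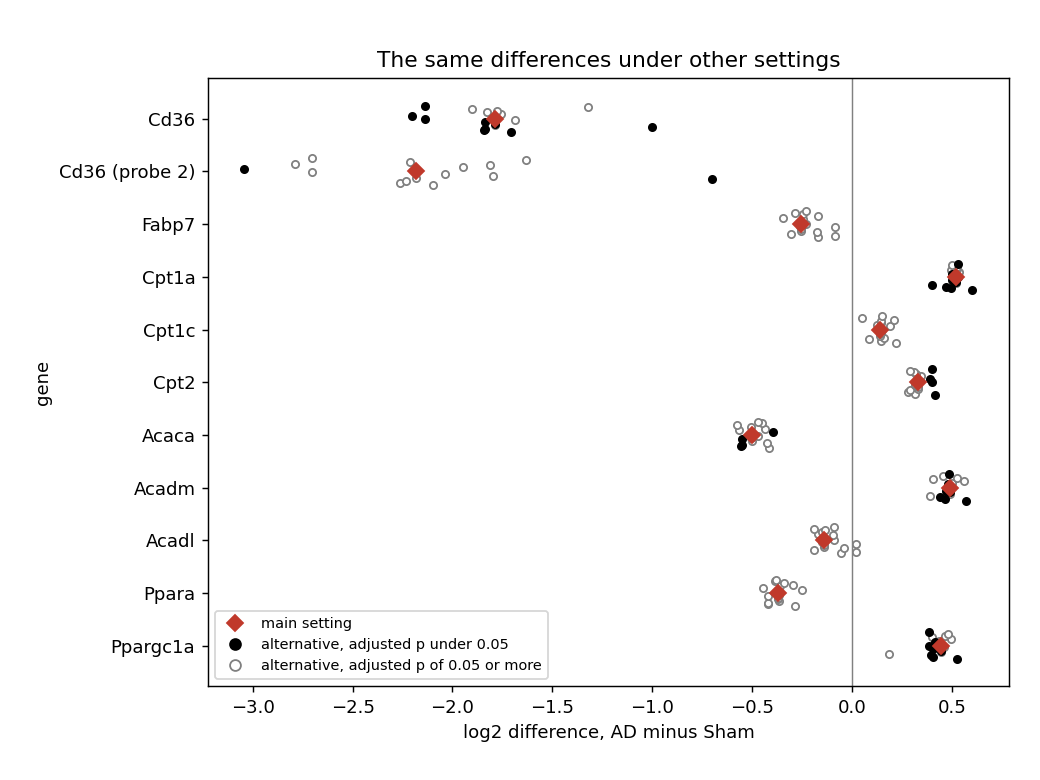
AD minus Sham difference (log2, horizontal axis) of each probe in the main setting (red diamond) and under the alternative settings (circles, filled where the limma adjusted p was under 0.05). Acadl alone has points on both sides of 0, and the Cd36 values after normexp correction, -1.0 and -0.70, lie nearest to 0 of their probes.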

How the data were processed

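Hippocampal mRNA of 3 AD and 3 Sham samples was measured, grouped by their labels. The deposited scanner output, made with Agilent Feature Extraction 11.0.1.1 per the file headers, holds background-subtracted intensity values per spot and flags for outliers, saturation and signal well above background. The authors also deposited a log2 value table whose scaling is not stated. Its column medians were all 6.56, its genes were not centred and its values ran the same way as the scanner intensities. Its differences were close to those with quantile normalization, for Cpt1a 0.498 against 0.497 and for Acly -0.191 against -0.192. The second Cd36 probe differed more, at -1.80 against -2.26. These settings are therefore near repeats of each other for most probes named here.

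Spots flagged as outliers (400 to 559 per array) and control spots were dropped, 0 spots were saturated, and spots of a probe were averaged on the log2 scale. The array's 75th percentile was subtracted, and probes well above background on at least 3 of 6 arrays with no missing value were tested (22768). Accessions were matched to RefSeq symbols (15252 of 26997). Coordinates belong to RefSeq, not to the array design. Groups were compared in a two-sided test without covariates (limma 3.58.1, functions lmFit and eBayes, R 4.3.3, with statmod 1.5.0). The threshold was 0.05 after Benjamini-Hochberg adjustment. The test was tried on simulated data. The p-values reflect only how far these tissue samples varied, and the number of arrays limits the precision. Summed levels of marker lists are log2 of the summed scaled signals, 1 probe a gene. A marker counted as above background if it was well above it on at least 1 array. Among these markers, Myh4, Tnnt3 and Ccr2 were well above background on only 3 arrays and Ppbp on 1.

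The genes described, the lists and the tests were chosen with earlier results of these data known. Named were all 10 genes, every called gene among the other pathway genes (up to 12 rises and 12 falls), the gene of largest difference in a role without calls, and the 5 genes most like Cd36. Alternatives were other scalings, filters, normexp with an offset of 50 (on the median spot and background signals), the authors' table, scan, scan day and replicate as blocks, array weights, the methods' t-test and leaving out each array. The promoters of Cpt1c, Acaca and Acadl, and all proteins, were not analysed here.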

Additional observations from a re-analysis of the deposited data

How the results depend on the processing

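The 10 genes other than Acadl and the named pathway genes kept their direction in all settings in which they were tested (the genes most like Cd36 were not run). Calls did not. The 2858 probes called in limma became 1763 after normexp correction, 352 with no filter, 8759 with array weights (AD replicate 1 had a weight of 8.86), 4468 with scan day as a fixed block, 0 with scan as a random block (lowest adjusted p 0.172, 3672 probes and 19 pathway genes at an unadjusted p under 0.05), and by the methods' t-test 327 at their thresholds and 1848 after Benjamini-Hochberg. The 16 pathway genes became 7, 0, 42, 20 and 0 in the first 5 of these settings, 2 by the methods' t-test at their thresholds and 8 after Benjamini-Hochberg. The 5 called probes of the 10 genes became 3 after normexp correction (both of Cd36 and Cpt1a), 0 with no filter (8 at an unadjusted p under 0.05, and 34 pathway genes), and 0 with scan as a random block (5 unadjusted). Leaving out each array gave 0 to 4468 probes, 0 to 20 pathway genes, and 0 to 5 of the 11 probes, with a median difference of -0.19 to -0.09. That median was 0.0183 with quantile normalization, 0.0196 in the authors' table and 0.14 over the 9 probes above background on all 6 arrays. Calls higher in AD were 33.1% of all calls, 53.2% with the percentile over detected probes, 24.3% with median scaling and 17.4% after normexp correction, which moved the median of all probes from -0.01 to -0.15. Deviations of same-numbered AD and Sham arrays correlated at 0.03, 0.07 and 0.14, and those of differently numbered arrays at -0.12 to 0.06. These values were small and the labels state no pairing, so the numbers were not taken to pair the samples. With the replicate block 0 probes, 0 pathway genes and 0 of the 11 probes were called in limma (6482, 29 and 8 at an unadjusted p under 0.05). Slide as a block was not run, as slide could not be told from scan. The cause of these shifts was not tested. Of 185 values of the 11 probes over 17 settings, 133 kept their side of the threshold, 46 lost a call, 6 gained one and 0 reversed, and of 305 values of 18 named pathway genes 147 kept it, 157 lost a call, 1 gained one and 0 reversed. Scan day as a fixed block and leaving out Sham replicate 3, the only array of its day, were the same fit, and both are counted. Dim probes (Cd36, Acaca) are limited by signal over background.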

Other observations

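In the authors' value table the column of AD replicate 2 matched the scanner output of AD replicate 3, and the reverse (r = 0.9999 in both, against 0.9885 with the array of the same name). Both belong to AD, so the differences above do not depend on it. The adipocyte list, checked because Cd36 is also high in fat, had Lep and Cidec above background on no array, and its summed level was -1.91 to 0.61 in AD and -2.34 to -0.06 in Sham. Adipoq, chosen after its values were seen, had levels of -0.57, -3.90 and 0.41 in AD and of -5.64, -3.90 and -3.88 in Sham (limma adjusted p = 0.127). Skeletal muscle markers (7 of 7 above background, Myl11 higher in AD in limma) summed to -0.11 to 2.23 in AD and -1.11 to -0.55 in Sham. Choroid plexus markers (6 of 6, 0 called) summed to 6.34 to 7.07 in AD and 4.76 to 6.67 in Sham. That sum was mostly Ttr, which alone stood at 7.01 on AD replicate 1. All 6 were higher in AD in the mean, by 0.99 for Ttr up to 3.77 for Kcnj13, with a list median of 2.53. Oligodendrocyte markers (6 of 6, Cnp and Mobp higher by 0.55 in limma) summed to 6.57 to 6.83 in AD and 6.74 to 7.30 in Sham. The single markers named in the text were chosen after their values were seen. The part of these cells in the values of the 10 genes was not tested.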
